A study of Mus musculus with 8 samples.

Results

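The 47 protein-coding mouse genes whose symbol starts with Slc25a were followed in leukaemic spleens with and without an inducible knockdown of the histone demethylase Kdm1a. They were found by symbol in the GENCODE M21 annotation, and all 47 were among the 54018 gene identifiers measured. The search by symbol used no values, but the family was chosen with earlier results of these data known. RNA came from splenic mononuclear cells of leukaemic C57BL/6 mice carrying Eµ-TCL1A, a transgene that drives the TCL1A oncogene in B cells and models chronic lymphocytic leukaemia. The 4 knockdown libraries (Kdm1aKD;Eµ-TCL1A, replicates 1, 2, 5 and 4) also carried a doxycycline-inducible Kdm1a knockdown, and the 4 control libraries (Eµ-TCL1A, replicates 1 to 4) carried the leukaemia transgene alone. Doxycycline was given to leukaemic mice to start the knockdown. The sources used here give neither the age of the mice, whether controls received doxycycline, nor the cells in which the knockdown construct is active. Nothing in them links a library to a single mouse, and a p-value here therefore describes variation between libraries, which may be technical.

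Slc25 proteins are carriers of the inner mitochondrial membrane, built from repeats of a common fold, that exchange metabolites between the cytosol and the matrix. Different members move phosphate and adenine nucleotides for ATP synthesis, citrate and other carboxylates, amino acids, cofactors, or the iron and glycine from which haem is made. Developing red cells depend on the iron and glycine carriers, and dividing lymphocytes draw on the carriers of one-carbon units, aspartate and citrate. Newly made carriers reach the inner membrane through the TOM receptors and the TIM22 complex.

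Levels are in FPKM, a fragment number corrected for transcript length and library size, so levels of different genes in a library can be set side by side. Between libraries FPKM is relative to each library's own number of fragments. The FPKM summed over all identifiers was 572660 in control replicate 4 and 671732 to 762888 in the others. Differences between the groups, written as knockdown minus control, are on the log2(FPKM + 1) scale and were tested with limma over the 12890 genes that reached 1 FPKM in at least 4 of the 8 libraries. Adjusted p-values are over all of these genes. Of the 47 carriers, 39 reached that filter. Depth, read from the steps between low values, was similar across libraries: per kilobase of transcript, a single fragment adds 0.0229 to 0.0269 FPKM. Kdm1a itself ranged from 15.5 to 21.04 FPKM under knockdown and from 21.2 to 31.1 FPKM in controls, without overlap (log2 difference −0.45; two-sided exact permutation p = 0.0286, the smallest possible, and adjusted p = 0.223 in limma). The Xist transcript of female cells had 94.9 to 175 FPKM in the 4 knockdown libraries, 110 FPKM in control replicate 1 and at most 0.128 FPKM in the other controls, so that group and sex were nearly the same split.

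Among the carriers, 1 rose and 0 fell. The riser was Slc25a21, the oxodicarboxylate carrier, which exchanges 2-oxoadipate for 2-oxoglutarate and links the breakdown of lysine and tryptophan to the citric acid cycle. Of all genes tested, 1.74% were called (224 of 12890), 1.63% as higher and 0.109% as lower, so 1 of 39 carriers (2.56%) is near the background. For the other 38 tested carriers the adjusted p was 0.0887 or more. A further 6 carriers had all knockdown values above all control values, and 0 the reverse. With Slc25a21 these make 7 of 39 (17.9%), among them Slc25a13, which reached the filter in all knockdown libraries and in 1 control, beside 13.1% of all genes tested without overlap in either direction, 11.2% with the knockdown libraries higher and 1.9% with them lower. At an unadjusted p under 0.05 there were 12 of 39 carriers, 11 of them higher and 1 lower, beside 19.2% of all genes (15.8% higher and 3.41% lower). A positive log2 difference was found in 32 of 39 carriers and in 63.7% of all genes, and the median difference was 0.33 over the carriers and 0.13 over all genes. After median-of-ratios scaling those medians were 0.17 and −0.015.

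Sequences are shown, as the 250 bases before the transcription start in RefSeq (GRCm38.p6), for the carrier that rose and for 3 others whose groups did not overlap. These are the members of the 7 without overlap for which a window adjoins the gene as annotated, without a gap. Read 5′ to 3′, Slc25a21 is at chr12:57197473-57197722, Slc25a1 at chr16:17928220-17928469 and Slc25a13 at chr6:6217174-6217423, on the minus strand, and Slc25a24 is at chr3:109122899-109123148 on the plus strand. Capitals mark CACGTG (an E-box) and CCAAT or its complement ATTGG.
Slc25a21: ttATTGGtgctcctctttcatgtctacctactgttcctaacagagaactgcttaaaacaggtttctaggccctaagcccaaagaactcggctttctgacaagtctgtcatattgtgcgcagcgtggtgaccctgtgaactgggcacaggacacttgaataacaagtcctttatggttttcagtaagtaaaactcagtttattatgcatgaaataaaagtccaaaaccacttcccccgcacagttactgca
Slc25a1: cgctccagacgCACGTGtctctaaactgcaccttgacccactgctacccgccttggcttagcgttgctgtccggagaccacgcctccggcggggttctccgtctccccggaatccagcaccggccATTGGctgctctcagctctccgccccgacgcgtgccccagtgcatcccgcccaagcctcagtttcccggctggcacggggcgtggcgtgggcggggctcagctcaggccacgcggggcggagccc
Slc25a24: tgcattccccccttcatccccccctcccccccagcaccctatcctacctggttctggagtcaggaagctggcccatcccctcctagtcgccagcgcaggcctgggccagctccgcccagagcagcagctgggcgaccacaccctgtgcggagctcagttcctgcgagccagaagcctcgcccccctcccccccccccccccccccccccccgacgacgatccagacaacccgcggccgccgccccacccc
Slc25a13: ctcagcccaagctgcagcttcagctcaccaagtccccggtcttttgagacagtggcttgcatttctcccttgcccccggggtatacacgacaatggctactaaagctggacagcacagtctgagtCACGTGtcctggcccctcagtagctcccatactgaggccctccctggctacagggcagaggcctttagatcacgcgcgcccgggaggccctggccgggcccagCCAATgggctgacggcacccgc
The windows of Slc25a1 and Slc25a13 each hold 1 E-box, 239 and 125 bases before the start, and the windows of Slc25a21 and Slc25a24 hold none. The Slc25a24 window has none of the marked motifs. RefSeq windows were matched for 36 of the 47 carriers (46 windows, since some genes have several starts). Others, among them Slc25a2, Slc25a26, Slc25a27, Slc25a32, Slc25a35, Slc25a37, Slc25a41, Slc25a44, Slc25a46 and Slc25a51, are named here without a sequence. Searched on both strands, CACGTG was in 8 of 46 carrier windows (17.4%) and in 6.02% of all 32851 windows, CCAAT in 45.7% and 33.8%, and GATAA, the core that GATA factors recognise, in 15.2% and 22.6%. The palindromic consensus of NRF1 was in 0 of the carrier windows and in 0.782% of all. In the printed windows no 2 marked matches share a base. Carrier windows had a median GC content of 57.4%, against 52.4% over all windows, and the part of that difference in the motif shares was not tested. The windows with CACGTG belonged to Slc25a1, Slc25a13, Slc25a14, Slc25a15, Slc25a31, Slc25a33 and Slc25a36. Overlapping windows of Slc25a14 hold the same CACGTG, and those of Slc25a23 the same CCAAT, so the window counts include some sites more than once.

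Carriers of citrate and other carboxylates had the highest median difference of the substrate groups with at least 2 tested members (0.66 over 4 genes). All 4 had positive differences (63.7% of all genes), 1 was called (1.74% of all genes) and 2 had groups without overlap (13.1% of all genes). Slc25a21 (ENSMUSG00000035472) lies on the minus strand of chromosome 12, at 56712634 to 57197472 in GRCm38. Its level under knockdown was 7.74, 19.2, 13.3 and 45.7 FPKM (replicates 1, 2, 5 and 4). The controls had 2.33, 2.29, 1.62 and 2.23 FPKM in replicates 1 to 4. Every knockdown library was thus above every control, and knockdown replicate 4 was highest. The means were 21.5 ± 16.8 and 2.12 ± 0.333 FPKM (SD, n = 4), a ratio of 10.1 and a log2 difference of 2.58 ± 0.43 (SE; limma adjusted p = 0.0233).

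The difference stayed between 2.13 and 2.94 when any 1 library was left out, while the call was lost in several of these fits. Without knockdown replicate 4 the log2 difference of Slc25a21 was 2.13 (limma adjusted p = 0.0107), and it was 2.15 with both replicate 4 libraries left out (adjusted p = 0.0345). With sex as a covariate, which leaves control replicate 1 as the only control of the same sex, it was 2.48 (adjusted p = 0.874). The call was lost without knockdown replicate 2 (limma adjusted p = 0.0943) or without control replicate 1, 2, 3 or 4 (adjusted p = 0.0591, 0.0780, 0.0796 and 0.0960), and with 5 in place of 1 added to each value (adjusted p = 0.0678). Whether fragments were counted by strand is not given in the sources used here. Exons of Slc25a21 overlap Pax9, a gene on the opposite strand, which had at most 0.224 FPKM in any library.

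Slc25a1, the citrate carrier that feeds fatty acid synthesis in the cytosol, had 24.7, 33.1, 22.3 and 31.5 FPKM in knockdown replicates 1, 2, 5 and 4 against 15.0, 17.4, 17.6 and 17.4 FPKM in the controls. The groups did not overlap, and control replicate 1 was the lowest library. The log2 difference was 0.68 ± 0.17 (SE; limma adjusted p = 0.0887), which passed the threshold with array weights alone (adjusted p = 0.0230). Slc25a10, the dicarboxylate carrier, had 11.7 ± 4.004 against 6.90 ± 1.48 FPKM (SD, n = 4). Its knockdown replicate 5 (7.44 FPKM) lay below control replicate 2 (8.63 FPKM), so its groups overlapped. Slc25a11, the oxoglutarate and malate carrier of the malate-aspartate shuttle, had 38.3 to 57.9 FPKM in the knockdown and 19.3 to 48.9 FPKM in the control libraries. The lowest of these was control replicate 4, and the log2 difference of 0.46 was 0.165 without it.

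**Figure D1:**
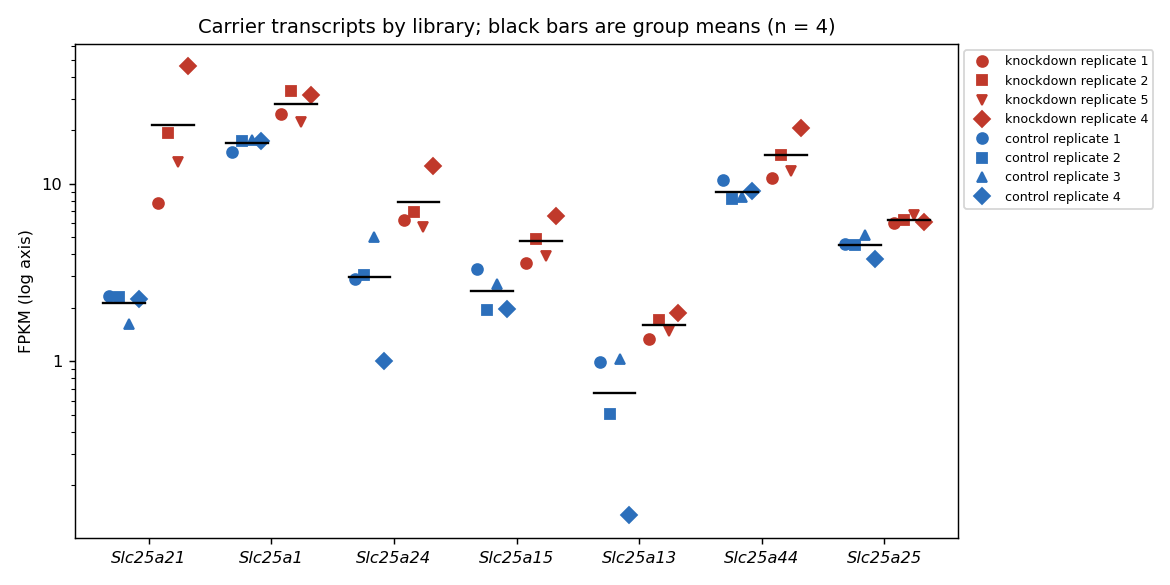
FPKM on a log axis in each library for the 7 carriers whose groups did not overlap; each symbol is 1 library and black bars are group means (n = 4). Slc25a21 lies between 7.74 and 45.7 FPKM in the knockdown and between 1.62 and 2.33 FPKM in the control libraries, and in each of the other 6 carriers the lowest knockdown symbol lies above the highest control.

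Amino acid carriers came next, with a median difference of 0.59 over the 5 that were tested. All 5 had positive differences (63.7% of all genes) and 3 had groups without overlap (13.1% of all genes), but 0 passed the threshold. One of these, Slc25a13, reached the filter mainly through the knockdown libraries, where it was higher. Slc25a15, the ornithine carrier of the urea cycle and of polyamine supply, had 3.59, 4.89, 3.91 and 6.54 FPKM in knockdown replicates 1, 2, 5 and 4 against 3.29, 1.95, 2.72 and 1.97 FPKM in the controls. The gap between the groups was small, 3.29 to 3.59 FPKM (log2 difference 0.71 ± 0.22, SE; limma adjusted p = 0.142). Slc25a44, a carrier of branched-chain amino acids, had 10.8, 14.6, 11.8 and 20.7 FPKM against 10.5, 8.19, 8.38 and 9.06 FPKM. Here too knockdown replicate 1 and control replicate 1 were nearly equal (log2 difference 0.59; adjusted p = 0.190). Slc25a22, a glutamate carrier, ranged from 17.9 to 31.8 FPKM with the knockdown and from 11.9 to 42.5 FPKM in the controls, the highest in control replicate 4.

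Both aspartate/glutamate carriers of the malate-aspartate shuttle were measured, and they differ in level. Slc25a12 (aralar) had 19.99, 21.8, 23.5 and 24.1 FPKM with the knockdown against 17.1, 21.7, 21.3 and 11.7 FPKM in the controls. Its log2 difference of 0.33 was 0.15 without control replicate 4, the lowest library. Slc25a13 (citrin), the form known from liver, had 1.33, 1.71, 1.47 and 1.87 FPKM in the knockdown libraries against 0.989, 0.503, 1.03 and 0.135 FPKM in the controls. The groups did not overlap, and control replicate 4 was again lowest (log2 difference 0.67 ± 0.22, SE; limma adjusted p = 0.158). Slc25a13 passed the filter in the 4 knockdown libraries and in 1 control, so its separation of the groups and its p-value are given as description only. Its difference depended on the added 1, being 1.38 with 0.1 added and 0.22 with 5, and was 0.45 without replicate 4 of both groups.

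Among carriers of adenine nucleotides and phosphate, 5 of 6 tested members had positive differences (63.7% of all genes), 2 had groups without overlap (13.1% of all genes), 0 passed the threshold, and the median difference was 0.22. The most abundant transcripts of the 47 genes found by symbol are here. Slc25a3, the phosphate carrier, had 328, 370, 257 and 350 FPKM in knockdown replicates 1, 2, 5 and 4 and 240, 272, 296 and 368 FPKM in the controls. Slc25a5, the ADP/ATP carrier of dividing cells, had 231, 299, 339 and 461 FPKM against 256, 321, 289 and 244 FPKM, and fragments of its pseudogene Slc25a5-ps may be split with it. The groups overlapped for both genes, and together they made up 45.9% to 51.5% of the summed FPKM of all 47 carriers in every library. That sum was 1362 ± 285 FPKM in the knockdown and 1153 ± 91.1 FPKM in the control libraries (SD, n = 4), with the highest value, 1765 FPKM, in knockdown replicate 4. Slc25a4, the ADP/ATP carrier of heart and muscle, had 53.7 ± 3.33 against 47.7 ± 13.7 FPKM, the lowest value being 28.5 FPKM in control replicate 4.

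The calcium-regulated ATP-Mg/phosphate carriers, which set the adenine nucleotide content of the matrix, had larger differences in 2 of 3 cases. Slc25a24 had 6.25, 6.90, 5.70 and 12.5 FPKM in knockdown replicates 1, 2, 5 and 4 against 2.89, 3.05, 4.99 and 1.01 FPKM in the controls. The groups did not overlap, and replicate 4 held the highest value of one group and the lowest of the other. The log2 difference of 1.195 ± 0.35 (SE; limma adjusted p = 0.126) was 0.68 without both of those libraries. Slc25a25 had 6.00, 6.22, 6.65 and 6.04 FPKM against 4.57, 4.54, 5.16 and 3.752 FPKM. The groups did not overlap, and the log2 difference was 0.40 (adjusted p = 0.217). Slc25a23, the third of these carriers, had 2.61 ± 0.909 against 2.95 ± 0.576 FPKM (SD, n = 4).

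Carriers of nucleotides and cofactors differed among themselves in direction. Of 9 tested, 7 had positive differences (63.7% of all genes), with a median of 0.29. The threshold was passed by 0 (1.74% of all genes), and 0 had groups without overlap (13.1% of all genes). Slc25a16, a carrier tied to coenzyme A, had 6.08, 6.60, 5.24 and 8.30 FPKM against 5.24, 4.32, 3.87 and 2.72 FPKM. The groups touched at 5.24 FPKM, where knockdown replicate 5 and control replicate 1 met (log2 difference 0.59; limma adjusted p = 0.183). Slc25a51, the mitochondrial NAD+ carrier, was listed at 0 in control replicate 2, while the other controls had 24.0, 17.4 and 26.7 FPKM and the knockdown libraries 15.9, 24.9, 27.6 and 53.1 FPKM. An exact 0 in such a table can be a failed estimate. Its log2 difference was 1.43 with that library and 0.30 without it.

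Another 6 of these carriers also had overlapping groups. Slc25a32, the folate and FAD carrier, had 10.3 to 15.4 FPKM in the knockdown and 5.13 to 11.2 FPKM in the control libraries. Knockdown replicate 5 was the highest library and control replicate 4 the lowest. Slc25a33 and Slc25a36, the pyrimidine nucleotide carriers, had 2.999 ± 0.774 against 2.08 ± 0.479 FPKM and 19.5 ± 2.38 against 15.0 ± 3.55 FPKM (SD, n = 4). Slc25a17, the cofactor carrier of peroxisomes, had 33.2 ± 4.60 against 30.1 ± 9.82 FPKM. Slc25a26, which brings S-adenosylmethionine into mitochondria, and Slc25a42, the coenzyme A carrier, had log2 differences of 0.14 and −0.028.

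The 5 carriers of iron, glycine and glutathione all had positive differences (63.7% of all genes), and 3 of them peaked in knockdown replicate 4. The threshold was passed by 0 (1.74% of all genes), and 0 had groups without overlap (13.1% of all genes). Slc25a37 (mitoferrin 1), the iron importer of developing red cells, had 40.6, 57.7, 31.3 and 188 FPKM in knockdown replicates 1, 2, 5 and 4 and 43.5, 65.8, 43.6 and 104 FPKM in the controls. Replicate 4 was highest in both groups, and without knockdown replicate 4 the other knockdown libraries lay within or below the control range. The log2 difference was 0.026, −0.51 without knockdown replicate 4, and −0.14 after median-of-ratios scaling. Slc25a38, the glycine carrier of haem synthesis, had 18.2, 30.2, 20.1 and 69.8 FPKM against 19.0, 23.2, 19.4 and 26.2 FPKM. Slc25a39, a glutathione carrier, had 36.4, 56.1, 35.2 and 135 FPKM against 26.4, 42.7, 36.9 and 49.7 FPKM. Without knockdown replicate 4 the differences of Slc25a38 and Slc25a39 were 0.033 and 0.13, against 0.43 and 0.55 with it. The related carriers Slc25a28 and Slc25a40 did not show that peak. Slc25a28 (mitoferrin 2) had 18.7 FPKM in knockdown replicate 4, inside the range of 13.6 to 24.8 FPKM of the other libraries, and Slc25a40, the second glutathione carrier, had 4.999 FPKM there. For Slc25a40 the groups were 4.82 ± 0.739 and 3.26 ± 0.386 FPKM (SD, n = 4; log2 difference 0.45, adjusted p = 0.205).

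Knockdown replicate 4 was also the library richest in red cell transcripts. The mean log2(FPKM + 1) of 18 erythroid markers was 8.42 in it, against 4.55 to 6.14 in the other 3 knockdown and 4.96 to 5.69 in the control libraries. Their summed FPKM was 1029 to 30390 in the knockdown and 2985 to 7986 in the control libraries, with no marker at 0 in all libraries. Taken singly, 4 of the 18 had all knockdown values above all controls (11.2% of all genes) and 0 the reverse (1.9%). In limma 1 of the 18 was called higher (1.63% of all genes) and 0 lower (0.109%). Relative to the median of the other 7 libraries, knockdown replicate 4 had 4.31 times as much Slc25a37, 3.67 times as much Slc25a39, 3.48 times as much Slc25a38 and 19.7 times as much Slc25a21. It had 0.404 times as much Slc25a53. In bulk RNA, fewer cells of a type and less RNA per cell cannot be told apart. Knockdown replicate 1, the lowest in erythroid markers (4.55), had 7.74 FPKM of Slc25a21, and the controls had at most 2.33 FPKM at erythroid levels of 4.96 to 5.69. With the erythroid level as a covariate the difference of Slc25a21 was 2.20 (limma adjusted p = 0.00118). With the same covariate Slc25a37 was −0.41, Slc25a38 0.10 and Slc25a39 0.20. The erythroid level is 1 average over 18 genes. By summed FPKM, knockdown replicates 1, 2 and 5 (1029, 2833 and 1474) lay below every control. A fit with that level therefore cannot settle the part of red cell transcripts in these differences, which was not tested.

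**Figure D2:**
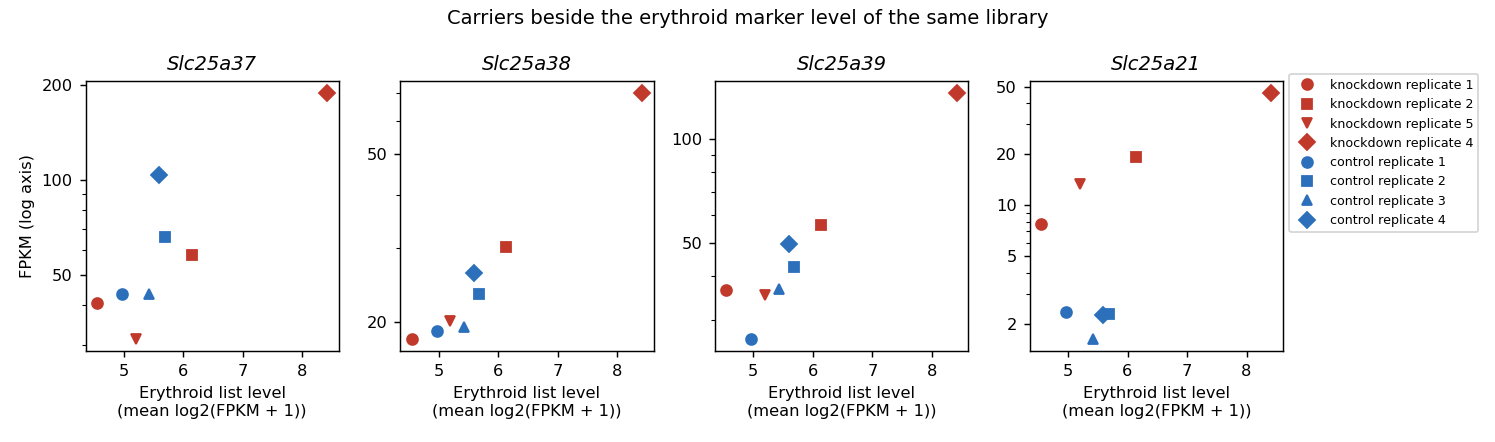
FPKM of 4 carriers on a log axis against the mean log2(FPKM + 1) of 18 erythroid markers in the same library; each symbol is 1 of the 8 libraries. Knockdown replicate 4, at 8.42, is highest in all 4 panels; in the Slc25a21 panel the other 3 knockdown libraries are at 7.74 to 19.2 FPKM and the controls at 1.62 to 2.33 FPKM.

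Other cell-type markers also differed between the groups, and their part in the carrier values was not tested. The 8 B cell markers had a level of 6.40 to 7.97 in the knockdown and 8.05 to 8.15 in the control libraries (summed FPKM 1237 to 3251 and 3501 to 4173). Monocyte and macrophage markers (8 genes) were at 4.17 to 5.03 against 2.86 to 3.82, and megakaryocyte and platelet markers (5 of 6 genes passing the filter) at 2.05 to 3.13 against 1.12 to 1.84. None of these 3 lists overlapped between the groups, and no marker of them was at 0 in all libraries. Proliferation markers (8 genes) were at 5.65 to 7.40 against 5.24 to 5.68, with knockdown replicate 4 highest. T cell markers (4.42 to 5.62 against 3.88 to 5.46) and neutrophil markers (1.67 to 3.57 against 2.62 to 4.84) overlapped as list levels. Gene by gene, 3 of 7 tested neutrophil markers were called lower in limma (0.109% of all genes). Also 3 had all knockdown values below all controls (1.9%), and 1 had them all above (11.2%). Called higher were 2 of 5 megakaryocyte and platelet markers (1.63%). Of the 8 B cell markers, 0 were called (1.74%) and 0 separated the groups singly (13.1%). With the B cell level as a covariate the difference of Slc25a21 was 1.89 (limma adjusted p = 0.0268), and those of Slc25a1, Slc25a24 and Slc25a44 were 0.59, 0.85 and 0.32. Since that level did not overlap between the groups, this fit cannot separate B cell content from the knockdown.

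Slc25a20, the carnitine and acylcarnitine carrier of fatty acid oxidation, had 16.0 to 18.8 FPKM in the knockdown and 10.4 to 17.9 FPKM in the control libraries, with overlap. Of the 3 carriers related to uncoupling proteins, Slc25a30 had 9.31 ± 1.82 against 6.56 ± 1.02 FPKM (SD, n = 4; log2 difference 0.44, limma adjusted p = 0.259). Slc25a14 and Slc25a27 had differences of 0.26 and −0.12. The 6 tested carriers left without a group by substrate were split, with 3 positive and 3 negative differences between −0.48 and 0.43. Among these Slc25a53, a carrier gene on the X chromosome, had 14.4 ± 5.01 against 19.6 ± 2.39 FPKM, with its lowest value, 7.36 FPKM, in knockdown replicate 4. Slc25a46, which acts at the outer membrane in mitochondrial division, had 11.9 ± 0.732 against 9.48 ± 2.51 FPKM. Slc25a35, Slc25a43, Slc25a45 and Slc25a47 had differences of 0.43, −0.095, −0.21 and 0.12. The other X-linked carriers were Slc25a5, Slc25a14 and Slc25a43, given above, so the 4 differed in sign (2 positive, 2 negative).

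**Figure D3:**
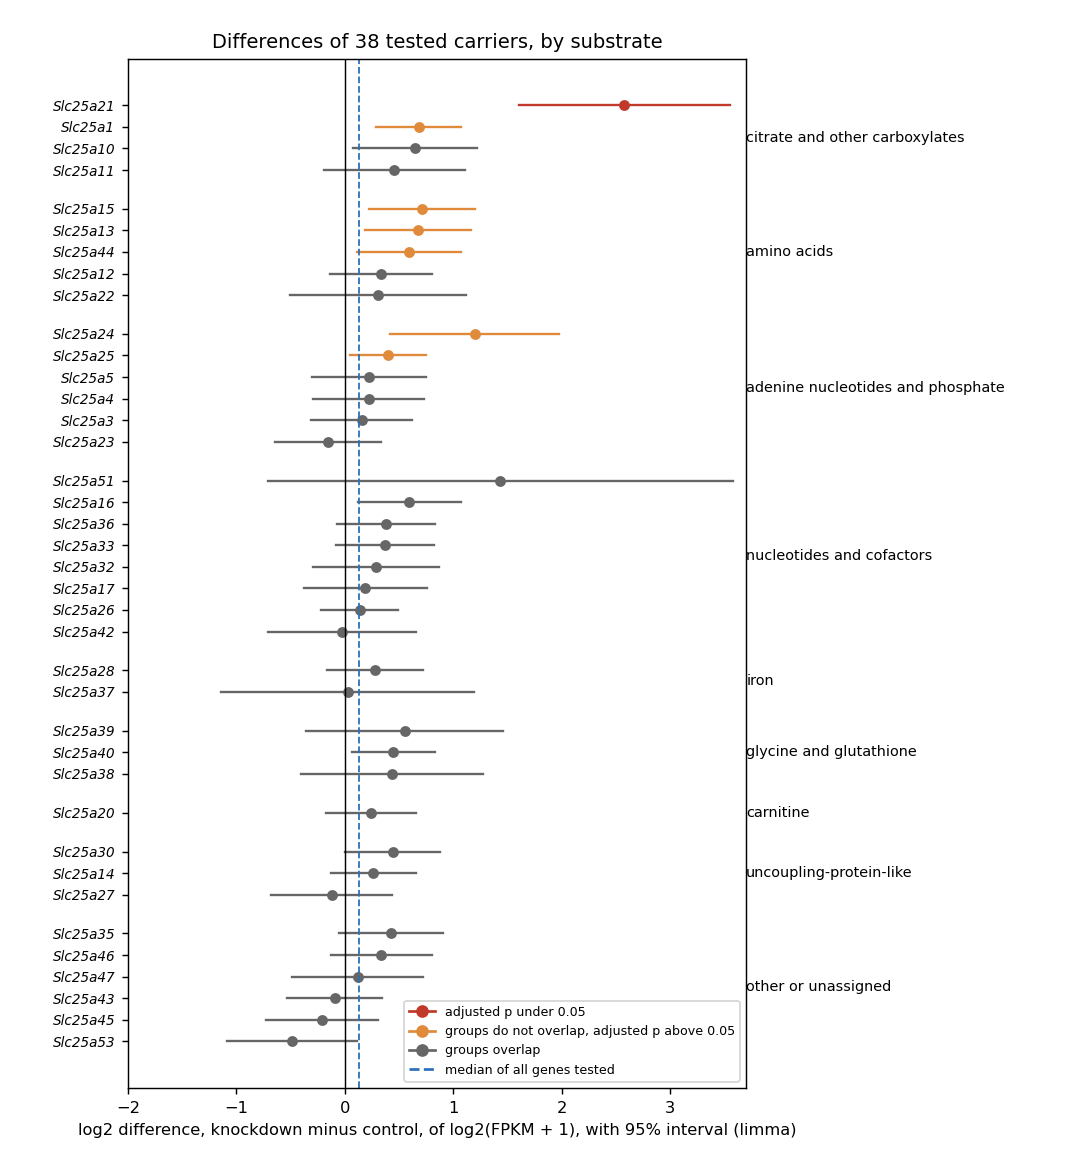
Log2 difference (knockdown minus control, of log2(FPKM + 1)) with its 95% interval from limma for 38 tested carriers, grouped by substrate; the dashed line is the median of all 12890 genes, 0.13. Slc25a21 at 2.58 has an adjusted p under 0.05, and 6 carriers are marked for groups without overlap alone.

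The other 8 carriers stayed below the filter and were not tested there. Slc25a29, a basic amino acid carrier, was at 0.307 to 1.27 FPKM and reached 1 FPKM in 2 libraries. Slc25a2 (ornithine) and Slc25a18 (glutamate) had at most 0.300 and 0.267 FPKM in any library. Slc25a34 had 0.0474, 0.0666, 0.0965 and 0.0438 FPKM in knockdown replicates 1, 2, 5 and 4 against 0.306, 0.140, 0.197 and 0.245 FPKM in the controls. These groups did not overlap, but the values correspond to about 4.9 to 9.9 and 13.9 to 35.8 fragments per library, and in a fit of all genes above 0 in any library the adjusted p was 0.158 (limma). Slc25a31, the ADP/ATP carrier of testis, reached at most 0.0255 FPKM. Slc25a41, Slc25a48 and Slc25a54 were each listed at 0 in 7 libraries and had about 1 fragment in the remaining one, where 3 fragments would be at most 0.0605, 0.0239 and 0.0453 FPKM.

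Ratios of related carriers within a library do not move with library scaling, and 6 pairs could be compared. The pair in which the groups did not overlap was Slc25a13/Slc25a12, with a log2 ratio of −3.91, −3.67, −3.99 and −3.69 in knockdown replicates 1, 2, 5 and 4 and −4.12, −5.43, −4.37 and −6.44 in the controls. Citrin was thus the minor form in every library. The mean difference of 1.27 is given as a description, with no test, since Slc25a13 reached the filter through its knockdown libraries and control values of 0.135 to 1.03 FPKM enter the ratio. With 1 FPKM added to both genes before the ratio it was 0.34, and it was 0.82 to 1.60 with 1 library left out. Slc25a24/Slc25a25 differed by 1.06 (two-sided exact permutation p = 0.0571 over 70 assignments, and 0.171 after Benjamini-Hochberg adjustment over the 6 pairs), with control replicate 3 inside the knockdown range. The mean differences of Slc25a4/Slc25a5, Slc25a39/Slc25a40 and Slc25a33/Slc25a36 were 0.0020, 0.0029 and 0.12, and that of Slc25a37/Slc25a28 was −0.27, each smaller than the spread within a group. The log2 ratio of the mitoferrins, Slc25a37/Slc25a28, was highest in knockdown replicate 4 (3.33) and between 0.71 and 2.43 elsewhere.

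**Figure D4:**
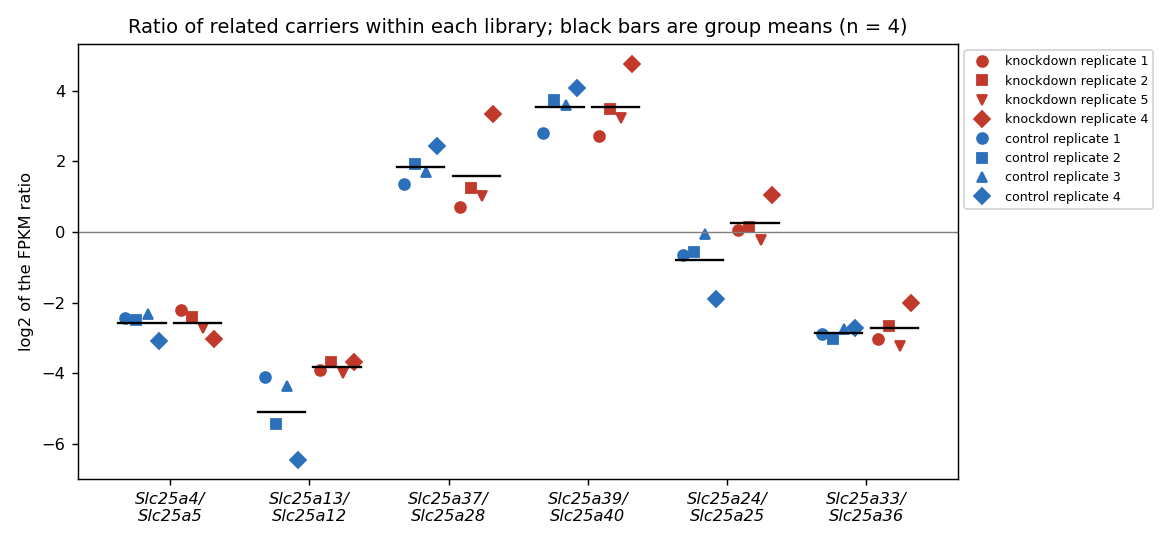
Log2 of the FPKM ratio of 2 related carriers in the same library, for 6 pairs; each symbol is 1 library, black bars are group means (n = 4), and 0 means equal FPKM. The controls of Slc25a13/Slc25a12 lie between −6.44 and −4.12, all below the knockdown libraries, while the 2 groups overlap in the other pairs.

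Many of the extreme values lay in the replicate 4 libraries. Knockdown replicate 4 had the highest value of 17 of the 39 tested carriers, and was highest for 30.7% of all genes. Control replicate 4 had the lowest value of 16 of the 39, and was lowest for 37.5% of all genes. Without knockdown replicate 4, 1 carrier was called (1.57% of all genes) and 8 had no overlap (14.9%). Without control replicate 4, 0 were called (0.0621% of all genes, 8 in number) and 8 had no overlap (17.9%). With array weights 2 carriers were called beside 5.9% of all genes, and with the erythroid level as covariate 1 beside 3.34%. Without both of these libraries 10 carriers had groups without overlap (25.6%, beside 21.3% of all genes) and 1, Slc25a21, was called (0.931% of all genes).

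Other genes of mitochondrial transport had mostly positive differences, as did 63.7% of all genes. Of 57 tested in 6 lists, 0 passed the threshold, beside 1.74% of all genes. For the TIM22 import route, which inserts the carriers, all 13 genes had positive differences (63.7% of all genes), with a median of 0.39 against 0.13 over all genes, and 2 had groups without overlap (13.1% of all genes). Those were Tomm40, the import pore of the outer membrane (46.9 ± 13.0 against 28.5 ± 1.63 FPKM; limma adjusted p = 0.143), and Agk, a TIM22 subunit (9.05 ± 0.766 against 6.51 ± 0.891 FPKM; adjusted p = 0.204). Most of the 13 genes were highest in knockdown replicate 4, and most were lowest in control replicate 4. Tomm20 counted as positive at 0.0046, although its mean was lower under knockdown (103.5 against 105.2 FPKM). The median over all genes was −0.015 after median-of-ratios scaling. The part of scaling and of the replicate 4 libraries in the values of this list was not tested. Of the VDAC pores of the outer membrane, Vdac1 had 97.7 ± 31.3 against 53.8 ± 4.35 FPKM without overlap (SD, n = 4; adjusted p = 0.123), and the median of the 3 was 0.57.

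Among 15 genes of the pyruvate carrier, the calcium uniporter and sideroflexins, 12 were positive and 3 had groups without overlap, with a median of 0.19 (63.7%, 13.1% and 0.13 over all genes). Mcub, the inhibitory uniporter subunit, had 8.89 ± 8.25 against 1.29 ± 0.441 FPKM (SD, n = 4; log2 difference 1.83, limma adjusted p = 0.0797). The others were the uniporter regulator Mcur1 (13.4 against 9.87 FPKM) and the serine carrier Sfxn1 (41.3 against 29.0 FPKM). In the list of iron, haem and glutathione partners 14 of 16 were positive and 4 had groups without overlap, with a median of 0.55 (63.7%, 13.1% and 0.13 over all genes). Among these were the iron-sulphur cluster genes Glrx5 (73.2 ± 66.4 against 22.4 ± 2.42 FPKM; limma adjusted p = 0.177) and Nfs1, and the porphyrin transporter Abcb6. Glrx5, Nfs1 and Abcb6 were highest in knockdown replicate 4 (172, 42.0 and 44.6 FPKM). Alas2, the first enzyme of haem synthesis in red cells, had 11.1, 44.1, 12.3 and 405 FPKM in knockdown replicates 1, 2, 5 and 4. Its difference was −1.10 with 118 ± 192 against 94.9 ± 39.4 FPKM, so its mean and its log2 difference have opposite signs. The part of knockdown replicate 4 in the values of this list was not tested. The uncoupling protein gene Ucp2, which the search by symbol left out, was more abundant than any Slc25a carrier. It had 657 ± 117 against 736 ± 207 FPKM. The carrier-like Mtch1 and Mtch2, left out in the same way, had differences of 0.48 and 0.78. The regulators of mitochondrial biogenesis had 0 of 7 tested genes without overlap and a median difference of 0.16 (13.1% and 0.13 over all genes). Nrf1 had 25.9 ± 4.41 against 20.8 ± 2.83 FPKM and Ppargc1a stayed below the filter.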

How the data were processed

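RNA-seq of 8 libraries, 4 per group, was analysed from 1 table of FPKM values per gene that the authors deposited. CASAVA and Cufflinks are listed, with no version, per the submitters' processing notes. The aligner, the genome build and the annotation: not given in the sources used here. Identifiers were named by GENCODE M21. The carriers and gene lists were chosen with earlier results of these data known. Values were taken as log2(FPKM + 1), a log2 scale computed here from the deposited values, so differences of low genes are understated. Genes with at least 1 FPKM in at least 4 libraries (12890) were fitted with limma 3.58.1 (R 4.3.3) with a mean-variance trend, 2 groups and no covariate, with Benjamini-Hochberg adjustment and a threshold of 0.05; the fit was tested on simulated data. Pair ratios used two-sided exact permutation tests over 70 assignments; the result for Slc25a13/Slc25a12 is not quoted, because of the filter. Carriers given in full were those called or without overlap, the 12 with the smallest unadjusted p, the 8 with the highest mean FPKM and a set list of 15; the others are given by value, range or count. A carrier that the rule selects and a related gene are included in the counts but not reported here. Depth was estimated from whole-multiple steps of low FPKM values within 5%, which held for 87.4% to 96.7% of the values examined per library. Alternatives covered the added constant, filter, scaling, weights, covariates, a replicate block and left-out libraries.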

Additional observations from a re-analysis of the deposited data

Results flagged for a closer look

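Among 70 groups of 4 libraries examined, 5 had a highest or lowest library whose gap to the nearest other, divided by the range of the group on the log2(FPKM + 1) scale, exceeded Dixon's 95% critical value, which chance alone exceeds in about 5% of groups. In the knockdown libraries Slc25a32 was highest in replicate 5 (gap 0.977 of the range), and in the controls it was lowest in replicate 4 (0.949). The control values of Slc25a1 had their lowest library in replicate 1 (0.898), and those of Slc25a21 in replicate 3 (0.881). Slc25a51 was listed at 0 in control replicate 2 (0.877).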

How the results depend on the processing

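The counts of called genes varied more than the carrier differences did. Against 224 genes and 1 carrier called, limma called 24 genes and 0 carriers with 5 added to each value, 2 and 0 with every gene above 0 in any library, 71 genes when the mean had to reach 5 FPKM, 126 with quantile-normalized values, 761 genes and 2 carriers (Slc25a21 and Slc25a1) with array weights, 430 genes with the erythroid level and 91 with the B cell level as covariate, 120 without both replicate 4 libraries, and 2 and 0 with sex as a covariate, which was added after seeing the data. Leaving out 1 library at a time gave 8 to 333 genes, 0 to 1 carriers called and 7 to 13 carriers without overlap, beside 14.4% to 21.1% of all genes (13 carriers and 21.1% without knockdown replicate 5). After quantile normalization 3 of 39 carriers had no overlap, beside 11.9% of all genes, so that the carriers' share was below that of all genes. The median carrier difference was 0.28 to 0.38 with 1 library left out.

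Replicate numbers are shared by 3 pairs of libraries, whose deviations from their group means correlated at 0.16, 0.047 and −0.12, so the numbers were not taken to pair the libraries. With the replicate number as a block, 0 genes and 0 carriers were called, and Slc25a21 had a difference of 2.62 (limma adjusted p = 0.141). In that fit the difference rests on the 3 pairs alone, since a library without a partner adds nothing to it.

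Of 27 carriers followed, 20 kept their sign in all alternatives. Slc25a3 was −0.013 after median-of-ratios scaling. Without both replicate 4 libraries Slc25a4 was −0.033, Slc25a5 −0.0084, Slc25a17 −0.079 and Slc25a37 −0.25. With the B cell covariate Slc25a5 was −0.048, Slc25a37 −0.76, Slc25a38 −0.17 and Slc25a39 −0.067. Array weights gave −0.066 for Slc25a17 and −0.038 for Slc25a37. Slc25a37 was −0.14 after either median-of-ratios scaling or quantile normalization and −0.41 with the erythroid covariate. With 1 library left out, Slc25a4 ranged from −0.0041 to 0.33, Slc25a17 from −0.050 to 0.34 and Slc25a37 from −0.51 to 0.34.

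The log2 ratio differences near 0 changed sign. With 1 FPKM added before the ratio, Slc25a4/Slc25a5 was −0.0031 and Slc25a33/Slc25a36 −0.0098, and Slc25a13/Slc25a12, without a change of sign, was 0.34 in place of 1.27. Without both replicate 4 libraries Slc25a4/Slc25a5 was −0.025, Slc25a39/Slc25a40 −0.22 and Slc25a33/Slc25a36 −0.075. With 1 library left out these ranged from −0.17 to 0.14, from −0.40 to 0.28 and from −0.12 to 0.28, and Slc25a37/Slc25a28 from −0.86 to 0.017. The cause of these changes was not tested. With 4 libraries a group and FPKM in place of counts, carriers under 1 FPKM rest on few fragments.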
